A study of Rattus norvegicus with 11 samples.

Results

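The 30 genes described here encode the enzymes that oxidise fatty acids, those that use ketone bodies, and a few close partners, measured in ventricular myocytes from the hearts of male and female rats. They were found as rows of the authors' deposited table whose gene symbol equals a name on a set list, and 30 of 30 were present among 17257 genes in all. The myocytes, the contractile cells of the heart, came from wild-type, untreated Sprague Dawley rats aged 3 to 4 months, 6 males and 5 females, each a biological replicate. Langendorff perfusion freed the cells from the heart, and they were plated for 45 minutes before freezing. All groups share this isolation and plating, and no treatment differs between them. The comparison asks how gene expression in these cells relates to the sex of the animal. The authors' table gives, for each gene, a mean normalized count (reads divided by a size factor of each library, which sets libraries of different depth on one scale) for each sex, and no value per library.

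Beta-oxidation shortens an activated fatty acid, an acyl-CoA, by a repeated cycle of dehydrogenation, hydration, a further dehydrogenation and thiolysis, each turn releasing acetyl-CoA. In the mitochondrion the enzymes of the cycle differ in the chain length they accept, and the electrons of the opening step pass through the electron transfer flavoprotein to the respiratory chain. Peroxisomes run a parallel cycle on very long and branched chains. The adult heart draws most of its ATP from fatty acids and also burns ketone bodies, which the liver makes and the heart converts back to acetyl-CoA.

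Sex differences among these genes were few and of moderate size. Decr1, Eci1 and Acaa1a were higher in females, by 1.46-fold, 1.35-fold and 1.62-fold, and Etfa was higher in males, by 1.31-fold. In the authors' deposited table, the other 26 genes had an adjusted p of 0.05 or more. The 4 genes called are 13.3% of the 30, against 14.5% of all 13346 genes with a mean above 0 (6.71% higher in females and 7.76% higher in males). Of the 28 with a mean of 50 or more, 14.3% were called, against 20.5% of the 9116 such genes in the table (9.69% and 10.8%), so the share called was near or under the background. By the authors' deposited table, the unadjusted p lay under 0.05 for 13 genes, 10 with the larger mean in females and 3 in males. They are 46.4% of the 28, against 37.8% of all genes as abundant (17.9% and 19.9%). The log2 fold change, female over male throughout, was above 0 in 21 genes and below 0 in 9, with a median of 0.19, against -0.01 over all genes with a mean above 0. It ran from -0.51 for Oxct1 to 0.69 for Acaa1a among the same 28, whose median was 0.16. Ivd and Hadh, both close to 0, turned negative when the sexes were scaled to the same summed mean.

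**Figure D1:**
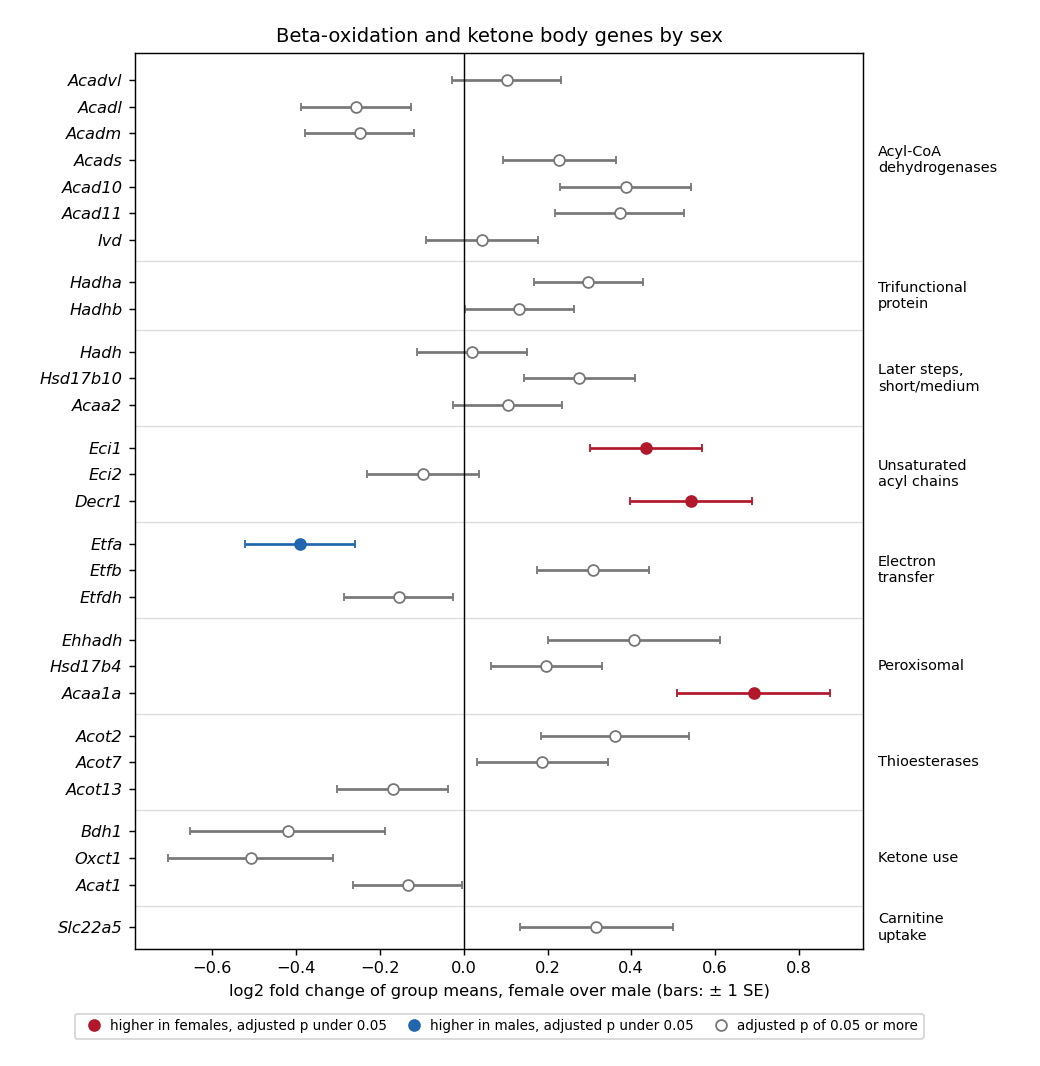
Log2 fold change of the mean normalized count, female over male (x axis), for the 28 genes with a mean of 50 or more, grouped by role (right); bars are 1 standard error either side, and filled points passed an adjusted p under 0.05. The filled points are Eci1, Decr1 and Acaa1a to the right of 0 and Etfa to the left, and the 3 ketone body genes all lie left of 0.

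The precision of these values rests on the variation between libraries of a sex. The authors' p-values could be matched to a variance for each gene, either the gene's own or, where that was smaller, a smooth fit over all genes, and standard errors (SE) of the log2 fold changes were computed from it. The fit has a floor, a coefficient of variation (CV) between libraries of 14.8% even at the highest counts, and the smallest SE among the 30 was 0.13. Among the 969 genes called at a mean of 1000 or more, the smallest log2 fold change in either direction was 0.35. No smaller difference was called at such means with these 11 libraries.

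For 8 of the 30 genes, those with low to moderate counts, the printed digits of the deposited values gave the whole reads of every library, and an exact permutation test over libraries could be run. Each library is then known by its sex and size factor, with no replicate number. Letters a to f in males and a to e in females follow falling size factors. The other 22 genes have group means alone. The size factors ran from 0.811 to 1.17 in males and from 0.972 to 1.14 in females.

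The 4 genes that were called differ in place and role, and 3 have a promoter in the RefSeq table for the rat assembly GRCr8. These 250 bases before the transcription start are shown because their genes carry the differences between the sexes. Capitals mark any AGGTCA, in either orientation, the half-site bound by PPAR, RXR and estrogen-related receptors, nuclear receptors known to act on genes of fatty acid oxidation.
Acaa1a (chr8:127957231-127957480, plus strand): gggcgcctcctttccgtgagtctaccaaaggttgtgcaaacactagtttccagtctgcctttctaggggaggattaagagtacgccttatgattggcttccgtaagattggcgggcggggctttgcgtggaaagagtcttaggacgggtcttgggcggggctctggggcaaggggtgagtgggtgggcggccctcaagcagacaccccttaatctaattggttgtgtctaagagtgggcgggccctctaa
Eci1 (chr10:13961000-13961249, plus strand): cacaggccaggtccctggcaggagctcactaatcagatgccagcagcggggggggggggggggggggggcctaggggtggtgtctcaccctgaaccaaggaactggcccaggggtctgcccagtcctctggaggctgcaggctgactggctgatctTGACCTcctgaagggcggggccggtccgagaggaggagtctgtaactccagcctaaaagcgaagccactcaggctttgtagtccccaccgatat
Etfa (chr8:64787966-64788215, minus strand): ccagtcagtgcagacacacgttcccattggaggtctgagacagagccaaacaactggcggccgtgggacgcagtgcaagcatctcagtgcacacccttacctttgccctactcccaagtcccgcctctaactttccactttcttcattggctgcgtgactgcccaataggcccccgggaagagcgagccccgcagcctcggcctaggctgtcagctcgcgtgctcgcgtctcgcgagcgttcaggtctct
Eci1 held TGACCT, the half-site read on the other strand, starting at position -94 from the transcription start. Acaa1a and Etfa held none in this window. Of the 27 genes with an entry, 5 held AGGTCA in either orientation, or 18.5%, against 14.1% of all 33469 promoters of the same length. The 27 are counted by gene and the 33469 by promoter, and a gene can have several promoters. The other 4 were Acadvl, which held it at both -169 and -17, Acad11 at -213, Echs1 at -93 and Hsd17b4 at -56. AGGTCA repeated directly with 1 base between, in either orientation, was in 0 of the 27 and in 17 of the 33469. These matches describe letters in a window and say nothing of binding.

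Acyl-CoA dehydrogenases open each turn of the cycle. None of the 7 was called. The enzymes for very long, long and medium chains had the following means. Acadvl, the very long chain enzyme of the inner membrane, had 33003 normalized counts in males and 35437 in females, for a log2 fold change of 0.10 ± 0.13 (SE). Acadl, for long chains, went the other way with 15104 and 12631, a log2 fold change of -0.26 ± 0.13 (SE). Acadm, the medium-chain enzyme whose loss is a common inherited defect of fat oxidation, had 63759 and 53690, a log2 fold change of -0.25 ± 0.13 (SE). The authors' deposited table gave adjusted p-values of 0.164 for Acadl and 0.197 for Acadm, so neither negative value passed the threshold. Acads, for short chains, had 4285 and 5020, with a log2 fold change of 0.23 ± 0.13 (SE). Ivd, which acts on isovaleryl-CoA in leucine breakdown, had 6517 and 6718, a difference of 0.04 ± 0.13 (SE) on the log2 scale.

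Acad10 and Acad11, dehydrogenases of less settled substrates with roles outside the classical cycle, came closer to the threshold. Acad11 normalized counts in the females were 995, 1142, 1203, 916 and 967, and in the males they ran from 638 through a median of 821 to 964. By these reads 1 male library reached into the female range, and 4 of 5 females lay above all males. The male reads of Acad11 are not certain, since a slightly wider tolerance on the printed log2 fold change admits another set. By that set the males ran from 668 through a median of 727 to 1050, so that 2 males reached into the female range and 2 females lay above all males. The means, the same for both sets, and the SDs of the former were 807 ± 120 (SD, n = 6) and 1045 ± 122 (SD, n = 5). The two-sided exact permutation p was 0.00866 by the former set and 0.0325 by the latter, while the authors' deposited table gave 0.067 as the adjusted p. Acad10 had 1993, 1419, 1466, 1579 and 1868 in the females, and 1057, 1191 and 1720 as the lowest, median and highest male. Its groups overlapped through male library d at 1720, which exceeded 3 of the 5 females. Other sets of Acad10 reads were not searched for at the wider tolerance. Acad10 means were 1274 ± 265 (SD, n = 6) and 1665 ± 253 (SD, n = 5), with an exact permutation p of 0.0346 that rose to between 0.0556 and 0.0714 without male library a, b, c or e or female library a or e. The authors' deposited table gave 0.0579 after adjustment.

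The trifunctional protein of the inner membrane carries out the last 3 steps on long chains. Its alpha subunit, Hadha, holds the hydratase and dehydrogenase activities, and its beta subunit, Hadhb, the thiolase. The genes lie head to head on chromosome 6, and the 300 bases between their start sites, shown because both genes are read outward from it, hold no AGGTCA in either orientation. Hadha runs to the right of this stretch and Hadhb to the left.
Hadha-Hadhb (chr6:31907501-31907800, plus strand): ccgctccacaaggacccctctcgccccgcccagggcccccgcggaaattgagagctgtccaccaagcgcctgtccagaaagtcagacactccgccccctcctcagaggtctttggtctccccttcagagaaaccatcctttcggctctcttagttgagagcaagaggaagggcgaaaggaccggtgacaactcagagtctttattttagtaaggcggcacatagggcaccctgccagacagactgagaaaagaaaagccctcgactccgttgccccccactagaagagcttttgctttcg
Hadha had 33465 normalized counts in males and 41116 in females, for a log2 fold change of 0.30 ± 0.13 (SE), and Hadhb had 46321 and 50776, a log2 fold change of 0.13 ± 0.13 (SE). Adjusted p-values were 0.121 for Hadha and 0.589 for Hadhb by the authors' deposited table. Neither subunit passed, and both values lay on the same side of 0.

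Hydration, dehydrogenation and thiolysis of shorter chains fall to separate soluble enzymes. Hadh, the short-chain hydroxyacyl-CoA dehydrogenase, was the closest to equal of the 30, with 14378 normalized counts in males and 14582 in females and a log2 fold change of 0.02 ± 0.13 (SE). Hsd17b10, a dehydrogenase that also acts in isoleucine breakdown and in mitochondrial RNA processing, had 9715 and 11764, a log2 fold change of 0.28 ± 0.13 (SE). Acaa2, the thiolase of the mitochondrial matrix, had 39273 and 42226, a log2 fold change of 0.10 ± 0.13 (SE). None of these passed. Echs1, the short-chain enoyl-CoA hydratase, was nearly empty in this table, with 2 reads over the 6 male libraries and 4 over the 5 female libraries, 3 of these in female library b. The mean of 0.323 and 0.734 normalized counts allows no statement on its direction, and the sources used here do not name the annotation the reads were counted on.

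By chain length, the median log2 fold change was 0.12 over 4 long-chain genes, -0.07 over 2 medium-chain genes and 0.23 over 5 short-chain genes, or 0.12 in the last without Echs1. No gene of these classes was called. The differences between the classes were not tested, and long-chain values spanned -0.26 to 0.30.

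Auxiliary enzymes reposition or remove double bonds so that unsaturated fatty acids such as oleate and linoleate can pass through the cycle. Of the 3, Decr1 and Eci1 were higher in females. Decr1, the mitochondrial dienoyl-CoA reductase, had 10304 normalized counts in males and 15008 in females, for a log2 fold change of 0.54 ± 0.15 (SE), and the authors' deposited table gave it an adjusted p of 0.00515. Eci1, the mitochondrial enoyl-CoA isomerase whose promoter is shown above, had 5113 and 6915, a log2 fold change of 0.44 ± 0.13 (SE), for which the authors' deposited table gave 0.0135 after adjustment. Eci2, an isomerase found in peroxisomes and mitochondria, had 7356 and 6876, a log2 fold change of -0.10 ± 0.13 (SE). Ech1, a dienoyl-CoA isomerase of the same route that was not among the 30, was also higher in females, at 18613 and 30110 normalized counts, a log2 fold change of 0.69, with 4.12e-05 as the adjusted p of the authors' deposited table.

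The electron transfer flavoprotein takes electrons from all the acyl-CoA dehydrogenases and is a dimer of the Etfa and Etfb products. Etfa was lower in females, with 13482 normalized counts in males and 10286 in females, for a log2 fold change of -0.39 ± 0.13 (SE), for which the adjusted p of the authors' deposited table was 0.0326. Etfb, on another chromosome, had 6160 and 7628, a log2 fold change of 0.31 ± 0.13 (SE), and 0.108 was its adjusted p by the authors' deposited table. The estimates for the partner subunits thus lay on opposite sides of 0, and the difference between them was not tested. Etfdh, the membrane oxidoreductase that passes the electrons to ubiquinone, had 23323 and 20939, a log2 fold change of -0.16 ± 0.13 (SE).

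In peroxisomes, all 3 enzymes had log2 fold changes above 0, and Acaa1a, the thiolase that ends each turn there, was called. Its normalized counts were 422, 416, 519, 493 and 520 in the females, and 212, 291 and 350 as the lowest, median and highest male. Every female library lay above every male library. Such a separation was seen in 1.89% of 899 genes with recovered reads and a mean of at least 10, and in 0.89% with the females above. Those 899 genes had means of at most 30 in males and 100 in females, under those of Acaa1a. The share among genes as abundant as Acaa1a was not computed. Acaa1a means were 293 ± 50 (SD, n = 6) and 474 ± 51 (SD, n = 5), a log2 fold change of 0.69 ± 0.18 (SE). The exact permutation p was 0.00216, the smallest that 462 arrangements can give, and the authors' deposited table had 0.00665 as the adjusted p. Acaa1b, a close copy of Acaa1a on the same chromosome, had only 1.57 and 4.12 normalized counts, and the sources used here do not say how reads common to such copies were assigned.

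Ehhadh, the peroxisomal bifunctional enzyme for straight chains, had 750, 937, 821 and 804 normalized counts in female libraries a to d and 359 in female library e. The 6 males held to a narrow band of 525 to 579, with a median of 561. So 4 females lay above all males and the last below all of them. The CV was 4.08% in males and 30.03% in females, and the means were 554 ± 23 (SD, n = 6) and 734 ± 220 (SD, n = 5). The exact permutation p was 0.0606 with all libraries and from 0.0714 to 0.157 without any single library other than female library e. Without female library e it was 0.00476, the smallest the remaining libraries can give, since the other 4 females lay above all males. After adjustment the p of the authors' deposited table was 0.154. Hsd17b4, the bifunctional enzyme that also takes branched chains, had 6997 and 8020, a log2 fold change of 0.20 ± 0.13 (SE). The median over the 3 peroxisomal genes was 0.41, against 0.10 over the 22 mitochondrial genes, of which 14 were above 0 and 8 below. Over 18 other peroxisomal genes, not among the 30, the median was 0.07. The difference between the compartments was not tested.

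**Figure D2:**
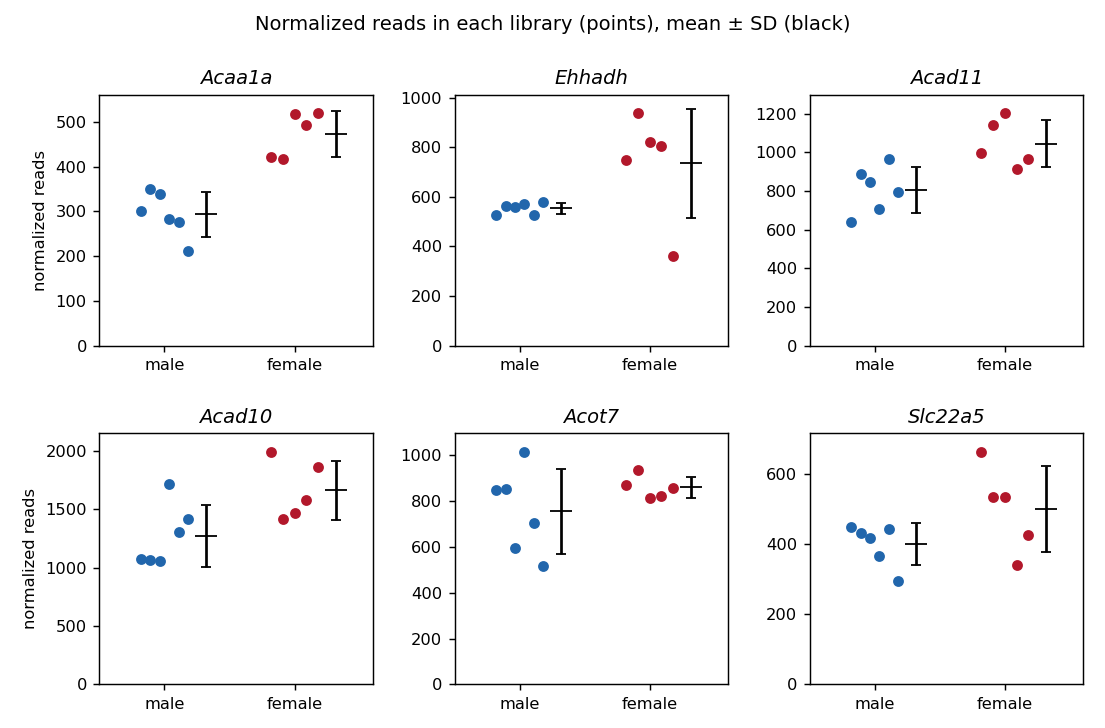
Normalized reads in each of the 6 male and 5 female libraries (points, in order of falling size factor within a sex) for 6 genes whose reads were recovered, with the mean and SD in black; the y axes start at 0. All Acaa1a points of the females lie above those of the males, 1 female point of Ehhadh at 359 lies below all males, and the Acot7 males spread from 517 to 1015 around the narrow female band. The Acad11 males are drawn from the set of reads found at the narrower tolerance, with 964 as the highest, against 1050 by the other set.

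Acyl-CoA thioesterases release the free acid from acyl-CoA. None of the 4 was called. Acot2, the mitochondrial enzyme, had 5012 normalized counts in males and 6437 in females, for a log2 fold change of 0.36 ± 0.18 (SE) that did not pass, the adjusted p being 0.16 by the authors' deposited table. Acot1, its cytosolic neighbour in the genome and a close copy, had 18 reads over the males and 57 over the females. Acot1 normalized counts were 7.93, 13.6, 23.9, 8.23 and 0 in the females and ran from 0 through 2.68 to 5.71 in the males, so 4 females lay above all males and female library e held none. Its exact permutation p was 0.0476. Without female library e that p was 0.00476, the smallest the remaining libraries can give, since the other 4 females lay above all males. It was from 0.0571 to 0.105 without any other single library. Acot7, a cytosolic enzyme best known from the brain, had 871, 934, 814, 823 and 857 in the females, and 517, 776 and 1015 as the lowest, median and highest male. All females lay within the male range, with an exact permutation p of 0.253, and the spread was the reverse of that of Ehhadh, with a CV of 24.5% in males and 5.55% in females. Acot13 had 7959 and 7078, a log2 fold change of -0.17 ± 0.13 (SE).

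All 3 genes of ketone body use had the lower mean in females, and none was called. Bdh1, which turns hydroxybutyrate into acetoacetate, had 4923 normalized counts in males and 3679 in females, for a log2 fold change of -0.42 ± 0.23 (SE). Oxct1, the transferase that commits acetoacetate to oxidation and that the liver lacks, had 107638 and 75657, a log2 fold change of -0.51 ± 0.20 (SE). Acat1, the thiolase that splits acetoacetyl-CoA and also acts in isoleucine breakdown, had 41311 and 37662, a log2 fold change of -0.13 ± 0.13 (SE). By the authors' deposited table the adjusted p was 0.242 for Bdh1, 0.0648 for Oxct1 and 0.624 for Acat1. Oxct1 thus had a larger estimate than Etfa, which was called, and a larger SE. Its CV between libraries of a sex, read from the deposited p-value, was 22.4% (20.5% to 24.2%), against 14.8% on the smooth fit. For Bdh1 the CV was 26.5% (23.3% to 29.5%), against 15.3% on the fit. Variation above the fit was seen in 7 of the 30 genes, the others being Acot2 with 20.1%, Ehhadh with 22.9%, Slc22a5 with 20.3%, Acad10 with 17.7% and Decr1 with 16.6%. In the remaining 23 genes it was under the fit or could not be told from it, and their SE rests on the fit. Ivd and Hadh gave no usable range, and that of Acaa2 was wide, 12.4% to 24.6%.

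**Figure D3:**
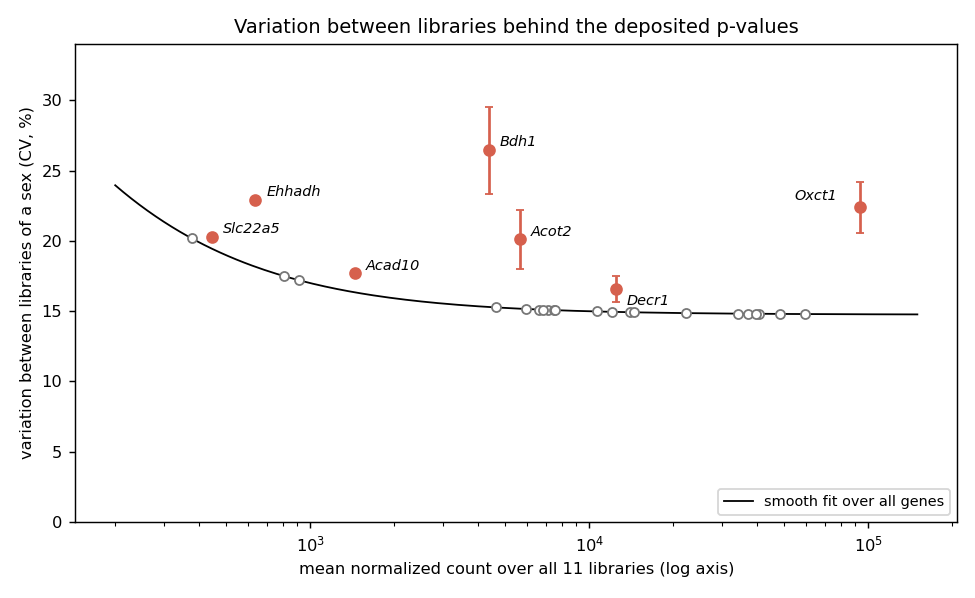
Variation between libraries of a sex (CV, %) against the mean normalized count over all 11 libraries (log axis) for the 28 genes with a mean of 50 or more; the line is the smooth fit over all genes. Named points lie above the fit, with bars for the range of the CV where reads are not known; open points are drawn on the line because their own CV was under it, not told from it or, for Ivd and Hadh, not determined. Bdh1 is highest at 26.5%.

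Carnitine carries long acyl chains into the mitochondrion, and Slc22a5 encodes its transporter in the plasma membrane. Its normalized counts were 663, 535, 534, 340 and 425 in the females, and 296, 425 and 450 as the lowest, median and highest male. The groups overlapped, since female libraries d and e lay within the male range. Means were 401 ± 59 (SD, n = 6) and 500 ± 123 (SD, n = 5), with an exact permutation p of 0.117. That p was 0.019 without female library d and from 0.0857 to 0.276 without any other single library.

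Of 89 measured pathway genes in 8 further lists, 15 were higher in females and 8 higher in males. That is 25.8%, against 14.5% of all genes and 20.5% of those with a mean of at least 50. In the carnitine shuttle, Cpt1b, the muscle form of the enzyme that commits acyl chains to mitochondrial entry, had 21359 normalized counts in males and 30166 in females, and passed with 0.0049 as the adjusted p of the authors' deposited table. Cpt1a was also higher in females, and Crot, the peroxisomal carnitine transferase, was lower, so 3 of 7 passed. Of 10 genes for acyl-CoA activation and malonyl-CoA, Acacb, which makes the malonyl-CoA that inhibits carnitine palmitoyltransferase, was higher in females, by 1.76-fold, as was Mlycd, which removes malonyl-CoA, by 1.55-fold. Acsl5, an acyl-CoA synthetase, was higher in males, by 1.42-fold. Among 18 other peroxisomal genes, Ech1 was higher in females, and Scp2 and Crot were higher in males. No gene of the 8 measured in the further ketone body list passed.

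Regulators of the pathway include the PPAR and estrogen-related receptors, their RXR partners and the PGC-1 coactivators. Of 16 measured, 5 passed, or 31.2%, against 14.5% of all genes and 20.5% of those with a mean of at least 50. All 5 had the larger mean in females, a direction called in 6.71% and 9.69% of those genes. The 5 were Ppard with a log2 fold change of 0.60, Ppargc1b with 0.54, Rxra with 0.55, Rxrb with 0.45 and Esrrb with 0.65. Ppara, the PPAR best known for fat oxidation in the heart, had 1274 normalized counts in males and 1259 in females, for a log2 fold change of -0.02. Ppargc1a, with -0.30, and Esrra, with 0.29, did not pass. Of 11 known PPAR targets, Ucp2 with a log2 fold change of 0.96, Ucp3 with 0.59 and Cpt1b with 0.50 were higher in females. No other target passed, so 27.3% of the 11 were called, beside the same shares over all genes.

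**Figure D4:**
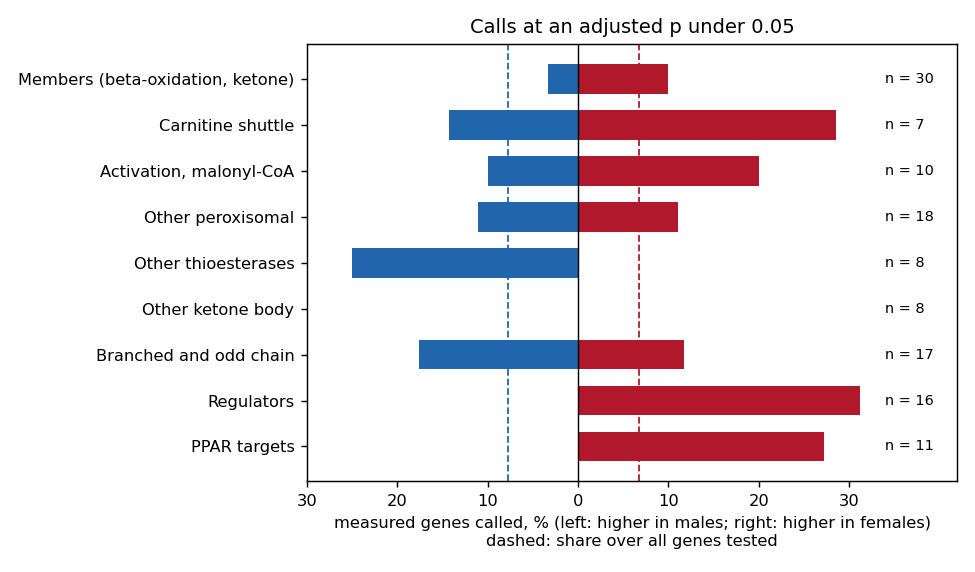
Share of measured genes called at an adjusted p under 0.05 (x axis, %), higher in males to the left and higher in females to the right, for the 30 genes and the 8 further pathway lists with their number of measured genes; dashed lines are the shares over all genes, 7.76% and 6.71%. Crot, Cpt1b and some other genes are in more than 1 list.

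The cells carried the markers of cardiac myocytes. All 10 markers were measured, with a summed mean of 3358714 normalized counts in males and 4013733 in females. Much of that difference lay in Myh6, which had 831771 and 1330868. The median log2 fold change over the 10 was 0.16. Myh6 and Ryr2 were called higher in females. Tnnt2 and Pln had the lower mean in females, with log2 fold changes of -0.03 and -0.20, and the other markers the higher. Markers of fibroblasts summed to 18075 in males and 8968 in females, of which Col3a1 alone had 10722 and 3915. Of 7 measured, Col3a1, Col1a1 and Postn were called higher in males, and Col1a2 was listed at 0. Dcn, Lum and Pdgfra had the lower mean in females and were not called. Tcf21, also not called, had 28.9 in males and 32.6 in females, so the markers did not all move together. In RNA from a bulk preparation, fewer cells of a type and less RNA per cell cannot be told apart. Endothelial markers summed to 19643 and 19602, with Vwf and Egfl7 higher in females and Emcn higher in males. Smooth muscle and pericyte markers summed to 5381 and 5560, and leukocyte markers to 920 and 759, with 0 of 7 called in each. Adipocyte markers summed to 4419 and 4045, most of it Fabp4 at 3818 and 3006. Adipoq and Plin1 had at most 3.64 normalized counts in either sex. Of the 8, only Lipe, which myocytes also express, was called, higher in females. Hepatocyte markers summed to 614 and 714, nearly all of it Ttr, with 0 of 5 measured called and Alb at 2.41 and 1.70. The part of these marker differences in the values of the 30 genes was not tested.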

How the data were processed

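Per the labels' protocols, RNA samples had integrity numbers from 9 upward, ribosomal RNA was removed, and 650 ng went into stranded paired-end libraries. FastQC, Trimmomatic 0.32, TopHat2 2.0.12, HTSeq 0.6.1, DESeq and the build rn6 are named in the submitters' processing notes. Annotation and strand setting are not given in the sources used here. Per the file headers, the authors deposited a normalized signal (counts divided by size factors) as means over all libraries and over groups A and B, a fold change as a ratio, its log2 value, a p-value and an adjusted p-value. Total reads per library are not in this table. The mean over all libraries weights A by 6 and B by 5 in 13346 of 13346 genes with a mean above 0, so A was read as the males and B as the females. The adjusted p matched Benjamini-Hochberg over these genes within 3.3e-15.

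Calls are the authors' adjusted p under 0.05. The digits of the means gave the size factors and, for 8 of the 30 genes, the whole reads per library, 6 of them with the log2 fold change and p-value added, with exactly 1 solution each at a log2 fold change tolerance of 6e-16. At a tolerance of 1e-15 Acad11 had 2 solutions, and Ehhadh, Acaa1a, Acot7 and Slc22a5 had 1 each. Acad10, which had the most candidates, was not searched at that tolerance. At the narrower tolerance, after the p was shifted by a relative 1e-06, 0 solutions remained for these 6. Their search ran over normalized reads of 0.4 to 1.7 times the group mean in each library. Sets with a library outside those bounds were not searched. The negative binomial test of the authors' tool, DESeq, was rewritten and returned the deposited p-values of 1236 genes with known reads within a relative 8.4e-14, and the variance behind each other gene's p-value was found by inverting it. The range given for it held the known value in 194 of 201 genes, or 96.5%. Those 201 genes had means of at most 30 in males and 100 in females. How well the range holds at higher counts, as in Oxct1, Bdh1, Acot2 and Decr1, was not tested. The recovery was tested on simulated data. Exact permutation tests were two-sided on mean normalized reads, with all 462 arrangements. They were run for 8 genes and are not adjusted. Python 3.11.15, numpy 2.4.6, scipy 1.17.1 and numba 0.67.0 were used. Alternatives varied the threshold, filter, scaling, pseudocount and libraries. The 30 genes and the other lists were chosen with earlier results of these data known. All 30 are named. Other genes are named where they passed in a pathway list (at most 4 a list by p, except for regulators and branched-chain genes, where all 5 that passed are named, a choice made after their values were seen), as Ppara, Ppargc1a and Esrra, as cell markers, or where a result turns on them. A gene that this rule names is not reported here. Levels per coding length were planned and not computed, since no protein lengths were used here, so levels are not compared between genes.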

Additional observations from a re-analysis of the deposited data

How the results depend on the processing

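Calls depended on the threshold. Of the 30 genes, 3 were higher in females and 1 in males at an adjusted p under 0.05, 5 and 2 at an adjusted p under 0.1, and 5 and 2 when the adjustment ran over genes with a mean of at least 50, where Acad10 (0.041), Acad11 (0.0475) and Oxct1 (0.046) also passed. With a fold of at least 1.5 required there were 1 and 0, and at an adjusted p under 0.01 the count in males was 0. Shares over all genes at these other settings are not given here. The counts therefore do not tell whether the 30 lie above or under the background there. The 15 and 8 further pathway genes moved by less than 1.5 times. Scaling the sexes to the same summed mean, added after the data were seen, shifted log2 values by 0.06 and turned the sign of Ivd to -0.019 and Hadh to -0.042, neither called. The median over the 30 was 0.13 to 0.19 under 4 alternatives. In the exact tests, leaving out 1 library gave p from 0.00794 to 0.0714 for Acad10, 0.00476 to 0.105 for Acot1, 0.00476 to 0.157 for Ehhadh, 0.019 to 0.276 for Slc22a5 and 0.305 to 0.833 for Echs1, whose sign turned without female library b. Acot1 had p = 0.165 on log2 values with a pseudocount of 1 in the exact permutation test. For Acad11 another set of male reads, found with a wider tolerance, gave an exact permutation p of 0.0325. Causes were not tested. Few reads lie behind Echs1, with 2 and 4 in males and females, and Acot1, with 18 and 57. No paired analysis was possible because the table carries no replicate numbers.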

Other observations

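Genes for the breakdown of branched-chain amino acids and odd-chain acids, which feeds the same dehydrogenases and electron transfer flavoprotein, moved both ways. Of 17 measured, Bckdha, a subunit of the branched-chain ketoacid dehydrogenase, and Bcat2, the mitochondrial branched-chain transaminase, were higher in females, with log2 fold changes of 0.59 and 0.48. Hibch and Aldh6a1, of valine breakdown, and Mcee, of the propionate route, were higher in males, with log2 fold changes of -0.50, -0.56 and -0.55. Of 8 other thioesterases measured, Acot9 and Them4 were called higher in males, with log2 fold changes of -0.51 and -0.62. None was called higher in females, while the median over the 8 was 0.19. Those called are 29.4% of the 17 and 25.0% of the 8. The shares over all genes were 14.5%, and 20.5% at a mean of at least 50.

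Female library e held the lowest female value of both Ehhadh and Acot1, at 359 and 0 normalized counts. In Acaa1a the same library e had the highest female value, at 520.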
